A study of Mus musculus domesticus with 12 samples.

Results

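The genes described here are 10 mouse genes that mark mast cells and basophils: Fcer1a, Ms4a2, Hdc, Cpa3, Cma1, Mcpt4, Mcpt8, Tpsb2, Prss34 and Il1rl1. They were chosen by name, as known markers of these cells. All 10 are among the 55385 gene identifiers in the files, and 7 of the 10 were high enough to be among the 17650 genes tested. Fcer1a, Tpsb2 and Mcpt4 fell below the filter on low counts with all libraries and are given as values, with 1 test of Tpsb2 in a smaller set of libraries.

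The 12 RNA-seq libraries came from fetal livers of C57BL/6J mouse embryos at E14.5, in 3 groups of 4. A retrovirus carried a short hairpin RNA against Dis3 (shDis3), Exosc10 (shExosc10) or firefly luciferase (shLuc, the control). Dis3 and Exosc10 are the catalytic subunits of the RNA exosome, which trims and degrades RNA. All groups shared lineage depletion, infection, 2 days in medium that expands erythroid cells, and a sort for GFP+ erythroid precursors (CD71intTer119-) together with proerythroblasts (CD71int/+Ter119-). The gate used GFP, CD71 and Ter119, and the labels name no antibody to a mast cell or basophil surface protein. Nothing in the labels ties the 4 replicates of a group to separate cultures or animals, and the p-values therefore describe the spread of these libraries, part or all of which may be technical. Each library is a bulk sample, in which fewer cells of a type and less RNA per cell cannot be told apart.

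Mast cells and basophils are granulocytes that carry the high-affinity receptor for IgE. When antigen crosslinks that receptor, they release histamine and proteases from their granules, and also make and release lipid mediators. The receptor is built from an alpha chain that binds IgE (Fcer1a), a beta chain that amplifies the signal (Ms4a2) and a gamma chain shared with other receptors (Fcer1g). In mouse, granule proteases differ with the cell: Cma1, Mcpt4 and Tpsb2 are typical of mature mast cells of connective tissue, Mcpt8 and Prss34 of basophils, and Cpa3 of mast cells and, at a lower level, of basophils and early progenitors. Hdc makes histamine, and Il1rl1 encodes ST2, the receptor for IL-33.

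Library totals ranged from 14936200 to 32397204 counts. The targeted transcripts were low in the matching group: Dis3 averaged 15.3 ± 6.7 TPM in shDis3, against 40.4 ± 8.92 TPM in shExosc10 and 37 ± 15.3 TPM in shLuc, and Exosc10 averaged 8.96 ± 1.54 TPM in shExosc10, against 42.1 ± 12.7 TPM in shDis3 and 33.5 ± 16.3 TPM in shLuc (SD, n = 4 each). TPM is a transcript level corrected for transcript length and library size. The label of erythroid cells was checked with 18 erythroid markers, all of which passed the filter, and their summed level was 1888 to 4633 TPM in shDis3, 2052 to 4904 TPM in shExosc10 and 1033 to 4456 TPM in shLuc. Some libraries were more like a library of another group than like any library of their own. Across the 17650 genes, log2 CPM (counts scaled to library size) of shDis3 replicate 3 correlated best with shLuc replicate 4 (r = 0.986), and those of shDis3 replicate 4 with shExosc10 replicate 1 (r = 0.981). No other library reached 0.98 with a library of another group, and the highest such r was 0.972. For this likeness alone, the 4 are called the libraries that stood apart. Within their own group, shDis3 replicates 3 and 4 reached r = 0.972 and 0.968. By contrast, shDis3 replicate 2 reached only 0.930 within its group and 0.963 with shLuc replicate 2. It is not among the 4 and was kept where several libraries were left out together. These 4 libraries are named wherever a result rests on them, and tests are given with and without them.

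The 10 genes covered a wide span of levels. Mean TPM over the 12 libraries was 52.7 for Hdc, 36 for Il1rl1, 18.7 for Cpa3, 5.90 for Ms4a2, 2.12 for Cma1, 1.12 for Mcpt8, 1.02 for Prss34, 0.209 for Tpsb2 and 0.0783 for Mcpt4, and Fcer1a was at 0. Not every step in this order held within libraries. Cpa3 lay above Ms4a2 in 12 of 12 libraries and Prss34 lay above Tpsb2 in 12 of 12. Hdc lay above Il1rl1 in 8 of 12, Il1rl1 above Cpa3 in 8 of 12 and Mcpt8 above Prss34 in 7 of 12, so these neighbours are not separated beyond their spread. Ms4a2 exceeded Cma1 in 10 libraries, as Cma1 did Mcpt8.

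The chains of the IgE receptor were measured at very different levels. Fcer1a (ENSMUSG00000005339.10, chromosome 1, 173221284 to 173227214, minus strand, GRCm38) had 0 counts in all 12 libraries. A count of 0 allows up to 3 counts, which is 0.0926 to 0.201 CPM in a single library and 0.00976 CPM over the 307467154 counts of all libraries. None of its 31-base stretches is shared with a transcript of another gene. The alpha chain was thus not detected at this depth in libraries where the other chains were.

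Ms4a2 (ENSMUSG00000024680.12, chromosome 19, 11615523 to 11623719, minus strand) measured 3.83, 3.06, 12 and 9.70 TPM in shDis3 replicates 1 to 4. It measured 12.9, 1.94, 2.51 and 1.88 TPM in shExosc10 replicates 1 to 4, and 1.75, 1.92, 0.88 and 18.5 TPM in shLuc replicates 1 to 4. The 4 highest values were those of the 4 libraries that stood apart, at 9.70 to 18.5 TPM, against 0.88 to 3.83 TPM in the other 8, and the 3 groups overlapped. The gamma chain gene Fcer1g ran in the same range of libraries, with 41.7, 38.3, 57.5 and 42.9 TPM in shDis3, 45.1, 15.7, 12.8 and 17.3 TPM in shExosc10 and 9.28, 16.8, 12.7 and 76.6 TPM in shLuc. All 4 shDis3 libraries lay above shExosc10 replicates 2 to 4 and shLuc replicates 1 to 3 for Fcer1g, and shLuc replicate 4 lay above them all. How many of all genes had this order was not counted.

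Hdc (ENSMUSG00000027360.5, chromosome 2, 126593667 to 126619299, minus strand), histidine decarboxylase, had the highest mean of the 10 genes. It measured 79.2, 39.9, 76.4 and 52.0 TPM in shDis3, 64.4, 42.0, 49.0 and 32.8 TPM in shExosc10, and 22.1, 23.6, 28.4 and 122 TPM in shLuc. The 3 lowest values of the series were those of shLuc replicates 1 to 3, and the highest was that of shLuc replicate 4. The group means were 61.9 ± 19.1 TPM in shDis3, 47.0 ± 13.4 TPM in shExosc10 and 49.1 ± 48.8 TPM in shLuc (SD, n = 4 each), and shLuc replicates 1 to 3 alone averaged 24.7 ± 3.30 TPM (SD, n = 3). Slc18a2, the vesicular transporter that loads histamine into granules, was at 0.35 to 2.39 TPM in shDis3, 0.16 to 1.27 TPM in shExosc10 and 0.32 to 2.66 TPM in shLuc.

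Cpa3 (ENSMUSG00000001865.2, chromosome 3, 20215620 to 20242181, minus strand), the granule carboxypeptidase, varied most of the 7 genes tested. It measured 10.5, 7.64, 39.4 and 30.9 TPM in shDis3, 47.9, 3.46, 2.55 and 2.22 TPM in shExosc10, and 3.83, 3.62, 2.58 and 70.2 TPM in shLuc. The highest library held 31.6 times the level of the lowest, and the ratio was 21 for Ms4a2, 18.8 for Mcpt8, 7.68 for Prss34, 7.21 for Cma1, 5.53 for Hdc and 4.13 for Il1rl1. The 4 libraries that stood apart held 30.9 to 70.2 TPM of Cpa3, whichever hairpin they carried, and the lowest of them was 2.96 times the highest of the other 8. Within those other 8, shDis3 replicates 1 and 2 lay above all 3 shExosc10 and all 3 shLuc libraries. How many of all genes separated so was not counted, so this is a description only.

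**Figure D1:**
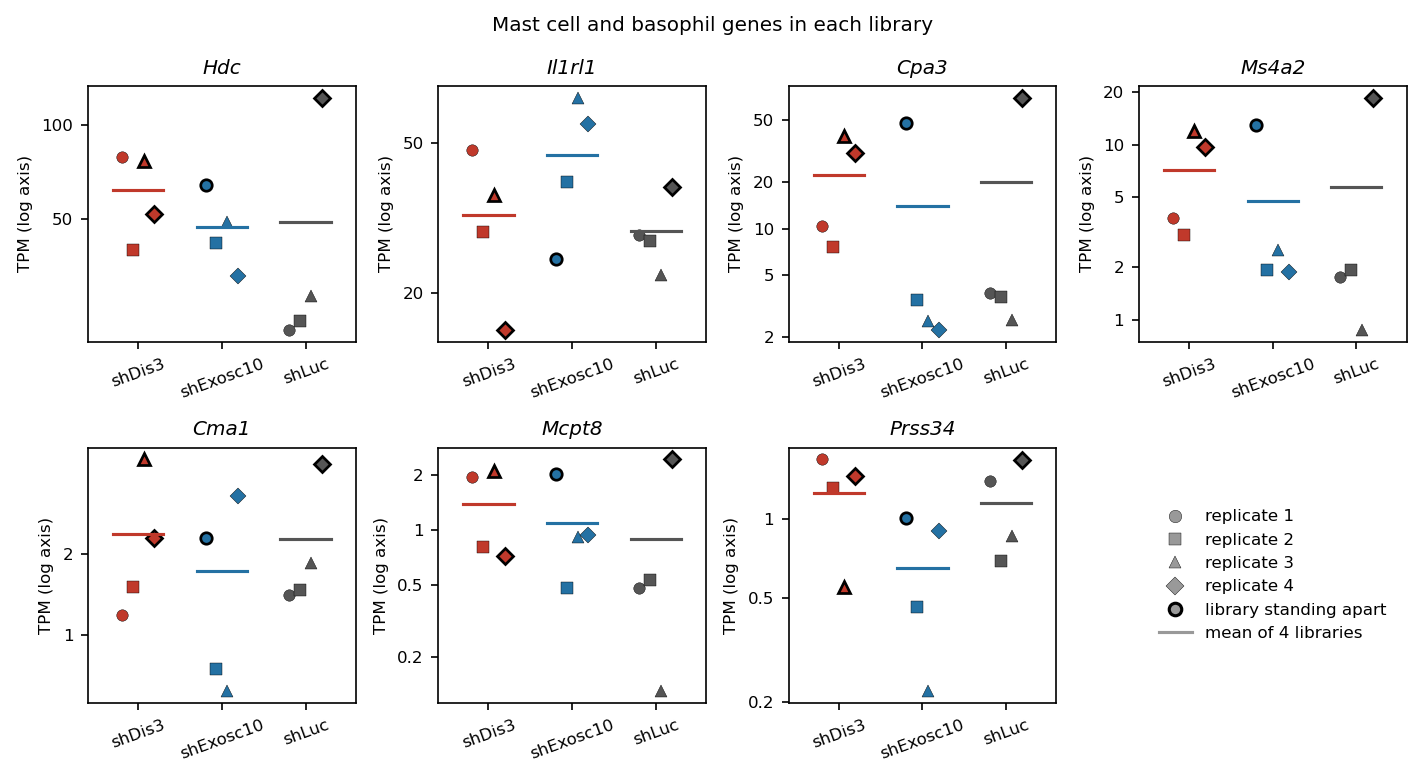
TPM (log axis) of the 7 mast cell and basophil genes that passed the filter, in each of 4 shDis3, 4 shExosc10 and 4 shLuc libraries; symbols give the replicate number, thick outlines the 4 libraries that stood apart, and bars the mean of 4 libraries. The outlined points lie above all others for Cpa3 (30.9 to 70.2 TPM against 2.22 to 10.5 TPM) and Ms4a2 (9.70 to 18.5 TPM against 0.88 to 3.83 TPM) and mix with the others for Il1rl1 and Prss34.

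The chymase locus on chromosome 14 holds Cma1, Mcpt4 and Mcpt8, which encode related serine proteases. Their coding sequences start as follows in GENCODE M21 (GRCm38), with the start codon in capitals, and are shown because related genes can share reads, which the authors' counting then divides between them.
Cma1: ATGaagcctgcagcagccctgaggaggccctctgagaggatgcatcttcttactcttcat
Mcpt4: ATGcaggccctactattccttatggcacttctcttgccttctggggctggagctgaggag
Mcpt8: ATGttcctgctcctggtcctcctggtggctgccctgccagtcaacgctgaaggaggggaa
Aligned from the start codon without gaps, Mcpt4 and Mcpt8 are identical at 30 of these 60 positions. The Cma1 sequence is that of its longest annotated coding form, of 780 bases against 738 for Mcpt4 and 741 for Mcpt8, and has a further in-frame start codon at base 40, so it is not in register with the others and was not compared. The whole transcripts differ in how far they can be told from other genes: none of the 31-base stretches of Mcpt8 occurs in another gene's transcript, while 10.6% of those of Cma1 occur in Gm48934 and 12.2% of those of Mcpt4 in other genes, most of them in Cma2 (10.2%). Counts of Cma1 and Mcpt4 are uncertain in so far as reads came from those stretches.

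Cma1 (ENSMUSG00000022225.7, 55941451 to 55944675, minus strand), the mast cell chymase, measured 1.19, 1.51, 4.47 and 2.28 TPM in shDis3, 2.29, 0.75, 0.62 and 3.26 TPM in shExosc10, and 1.41, 1.47, 1.85 and 4.30 TPM in shLuc. Mcpt8 (ENSMUSG00000022157.8, 56082166 to 56085273, minus strand), a basophil protease, measured 1.95, 0.80, 2.10 and 0.72 TPM in shDis3, 2.01, 0.48, 0.91 and 0.94 TPM in shExosc10, and 0.48, 0.53, 0.13 and 2.44 TPM in shLuc. Both genes were low, at 19 to 111 counts per library for Cma1 and 3 to 43 counts for Mcpt8, and their groups overlapped. Mcpt4 (ENSMUSG00000061068.7, 56059629 to 56062313, minus strand), a chymase of connective tissue mast cells, had 4 counts in shDis3 replicate 2, 4 in shExosc10 replicate 2, 10 in shLuc replicate 2, 7 in shLuc replicate 3 and 0 in the other 8 libraries. All 3 libraries numbered replicate 2 thus had Mcpt4 counts. Libraries with Mcpt4 counts were among those with a high summed level of 1107 olfactory receptor genes: 602 CPM in shDis3 replicate 2, 200 CPM in shExosc10 replicate 2, and 328 and 144 CPM in shLuc replicates 2 and 3. By contrast, shExosc10 replicates 3 and 4 had 145 and 254 CPM of these genes and no Mcpt4 count. The part of that signal in the Mcpt4 counts was not tested. The 4 libraries that stood apart had 7.01 to 12.7 CPM of olfactory receptor genes and no Mcpt4 count.

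The tryptase locus on chromosome 17 holds Tpsb2 and Prss34, which encode tryptase-type proteases of mast cells and basophils. Prss34 (ENSMUSG00000056399.2, 25298394 to 25300165, plus strand) measured 1.69, 1.31, 0.55 and 1.46 TPM in shDis3, 1.01, 0.46, 0.22 and 0.90 TPM in shExosc10, and 1.39, 0.69, 0.86 and 1.67 TPM in shLuc. Its means were 1.25 ± 0.494 TPM in shDis3, 0.647 ± 0.371 TPM in shExosc10 and 1.15 ± 0.456 TPM in shLuc (SD, n = 4 each), and the groups overlapped. Unlike Cpa3, it was not highest in the libraries that stood apart, which held 0.55 to 1.67 TPM, against 0.22 to 1.69 TPM in the other 8. Tpsb2 (ENSMUSG00000033825.10, 25366305 to 25369098, plus strand), a tryptase, had 20, 13, 0 and 0 counts in shDis3, 0, 7, 1 and 4 counts in shExosc10, and 0, 4, 2 and 7 counts in shLuc. Its counts were highest in shDis3 replicates 1 and 2 and were 0 in the other shDis3 libraries, where Cpa3 was higher. Without the 4 libraries that stood apart Tpsb2 passed the filter, with a log2 fold change of 3.19 (SE 1.94, adjusted p = 0.618 by edgeR) in shDis3 against shLuc, 1.07 (SE 1.76) in shExosc10 against shLuc and 2.13 (SE 1.87) in shDis3 against shExosc10, and it was not called in any of them. Tpsb2 passed the filter there through its counts in shDis3 replicates 1 and 2 alone, where it was highest. The filter thus favoured a higher value in shDis3, and nothing is read from these fold changes. The neighbouring tryptase gene Tpsab1 did not exceed 0.14 TPM in any library.

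**Figure D2:**
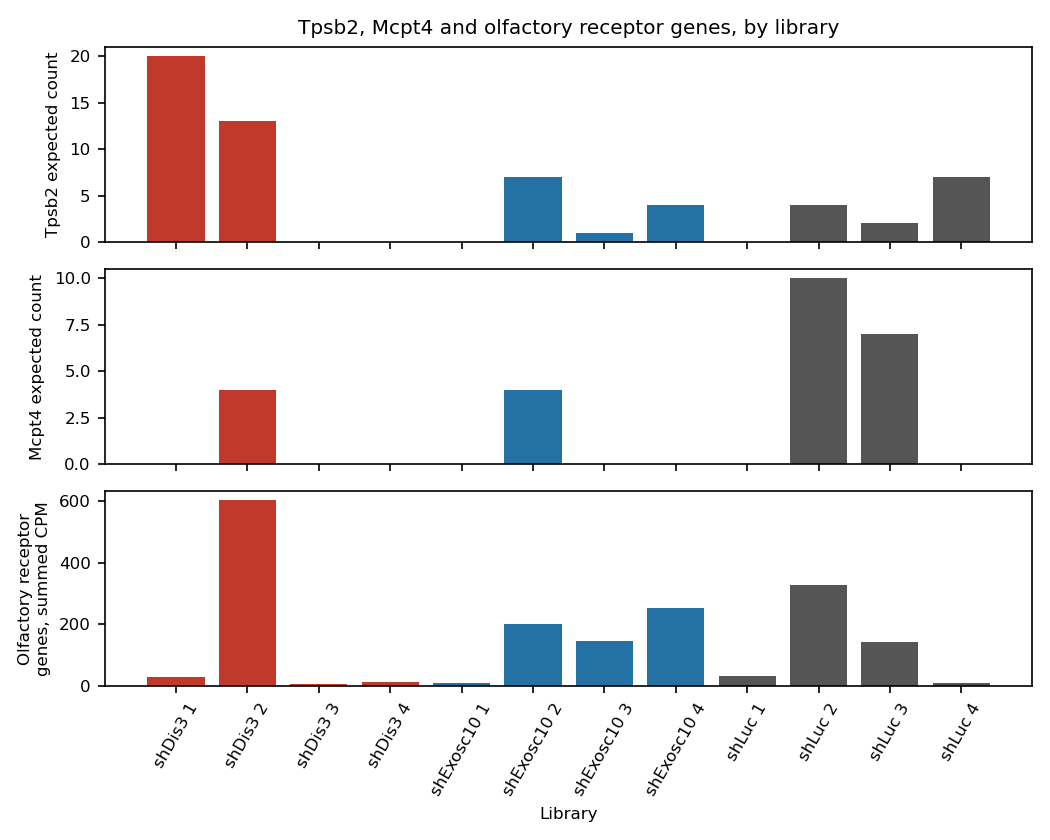
Expected counts of Tpsb2 and Mcpt4 and the summed CPM of 1107 olfactory receptor genes, as bars from 0, in each shDis3, shExosc10 and shLuc library. Tpsb2 reaches 20 counts in shDis3 replicate 1, and Mcpt4 has counts in 4 libraries that each have 144 CPM or more of olfactory receptor genes.

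Il1rl1 (ENSMUSG00000026069.15, chromosome 1, 40429570 to 40465415, plus strand), the IL-33 receptor, had a pattern of its own. It measured 47.8, 29, 36.3 and 15.9 TPM in shDis3, 24.6, 39.4, 65.9 and 56.2 TPM in shExosc10, and 28.4, 27.4, 22.3 and 38.3 TPM in shLuc. The 2 highest values were shExosc10 replicates 3 and 4, and the lowest was shDis3 replicate 4, one of the libraries with high Cpa3. Group means were 32.3 ± 13.4 TPM in shDis3, 46.5 ± 18.3 TPM in shExosc10 and 29.1 ± 6.67 TPM in shLuc (SD, n = 4 each). The receptor for IL-33 also has a shared subunit, Il1rap, which averaged 2.4 ± 0.226 TPM in shDis3, 2.78 ± 0.824 TPM in shExosc10 and 2.15 ± 0.752 TPM in shLuc.

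Cpa3 and Ms4a2 were high in the same libraries, while Il1rl1 was not. Of the 17650 genes tested, 692 (3.92%) were higher in each of the 4 libraries that stood apart than in each of the other 8, and of the 7 genes described here Cpa3 and Ms4a2 were among them. Those 4 libraries were singled out by their correlation over all genes, these included, so the share is a description with no test. In the pairs of alike libraries, shDis3 replicate 3 held 0.561 times the Cpa3, 0.647 times the Ms4a2, 0.625 times the Hdc and 0.948 times the Il1rl1 TPM of shLuc replicate 4. In the other pair, shDis3 replicate 4 held 0.646 times the Cpa3, 0.754 times the Ms4a2, 0.808 times the Hdc and 0.649 times the Il1rl1 TPM of shExosc10 replicate 1. Mcpt8 was also lower in the shDis3 library of both pairs (0.861 and 0.358 times), while the ratios were 1.04 and 0.996 for Cma1 and 0.329 and 1.45 for Prss34. The share of all genes that were lower in the shDis3 library of both pairs was not counted, so nothing is read from these directions. Among the remaining libraries, shDis3 replicates 1 and 2 were the higher for Cpa3 in TPM and in TMM-scaled CPM (the shExosc10 and shLuc libraries among them held 3.28 to 9.34 CPM, and both shDis3 libraries lay above these). For Ms4a2 they were the higher in TPM, but in TMM-scaled CPM shLuc replicate 1 (6.55 CPM) lay above shDis3 replicate 1 (6.24 CPM). How many of all genes were higher in shDis3 replicates 1 and 2 was not counted either, so nothing is read from this order.

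**Figure D3:**
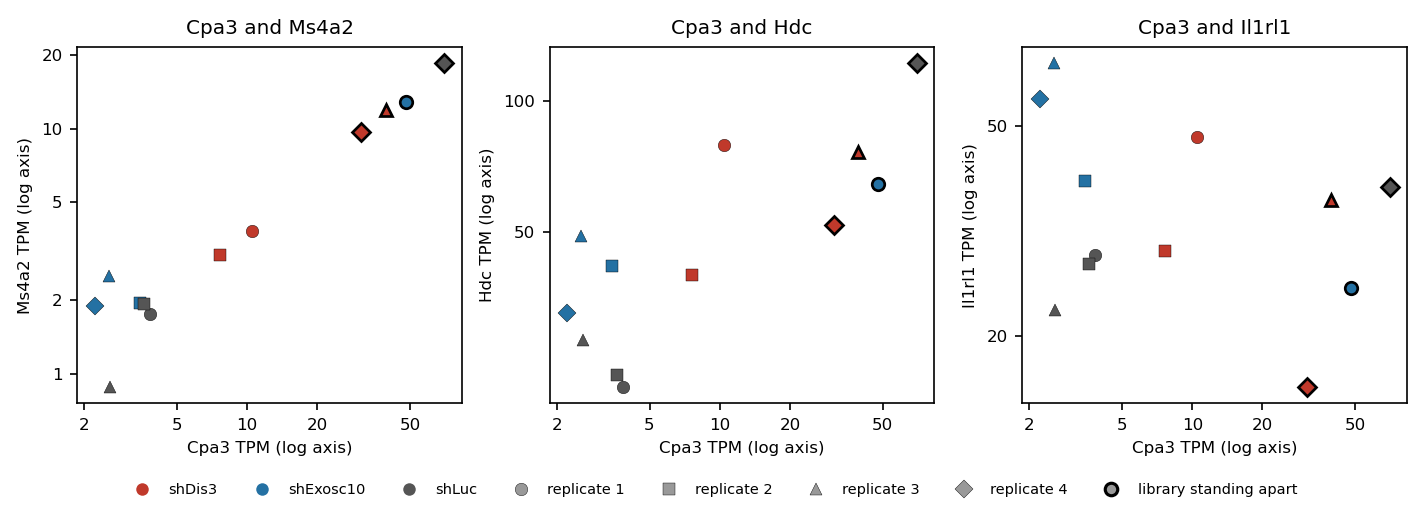
TPM of Ms4a2, Hdc and Il1rl1 (vertical, log axes) against TPM of Cpa3 (horizontal, log axis), one point per library, for shDis3, shExosc10 and shLuc; symbols give the replicate number and thick outlines the 4 libraries that stood apart. Points run along a line for Ms4a2, spread for Hdc, and for Il1rl1 the highest values, 65.9 and 56.2 TPM, lie at low Cpa3.

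In shDis3 against shLuc, which asks what less Dis3 does, none of the 7 genes tested passed the threshold. Differences are log2 fold changes of TMM-scaled counts from edgeR's quasi-likelihood test, with a standard error (SE) and a Benjamini-Hochberg adjusted p over all genes tested, called below 0.05. The log2 fold change was 0.49 for Cpa3 (SE 1.03), 0.37 for Ms4a2 (SE 0.79), 0.35 for Hdc (SE 0.34), 0.62 for Mcpt8 (SE 0.75), -0.08 for Prss34 (SE 0.62), -0.10 for Cma1 (SE 0.54) and -0.14 for Il1rl1 (SE 0.27). Each had an adjusted p of 1, and every difference but that of Hdc was smaller than its SE. The count of 0 of 7 stands against a background in which 0.0% of 17650 genes were called. At an unadjusted p under 0.05, 719 genes or 4.07% passed and none of the 7 did, and DESeq2 called 33 genes and none of the 7. The groups overlapped for 7 of 7 genes, where 0.805% of genes lay wholly higher and 0.227% wholly lower in shDis3. The median of the 7 was 0.35 and that of all genes 0.02, with 4 of the 7 positive.

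This comparison turned on a few libraries for Cpa3. Without shDis3 replicate 4, shExosc10 replicate 1 and shLuc replicate 4, Cpa3 was called higher in shDis3, with a log2 fold change of 1.81 (SE 0.44, adjusted p = 0.0299 by edgeR), in a fit that called 4.04% of genes. It was higher in 3 of 3 shDis3 libraries than in any of 3 shLuc libraries. The share of all genes that separated so in these libraries was not counted, so this is a description only. The fit without the 3 libraries left out shLuc replicate 4 but kept shDis3 replicate 3 (39.4 TPM), the library most like it. Both sets were picked from expression in these data, and the set of 4 was not planned beforehand. Without shDis3 replicate 3 as well, the value was 0.93 (SE 0.33, adjusted p = 0.174 by edgeR). It was not called, where 3.34% of genes were. Leaving out shLuc replicate 4 alone gave 2.28, also not called, and a fit of all libraries with their cluster as a term turned the direction, to -0.98 for Cpa3 and -0.73 for Ms4a2, neither called. Ms4a2 had 1.21 (SE 0.40, adjusted p = 0.115 by edgeR) without the 3 libraries and 0.68 (SE 0.40) without the 4, and Hdc had 0.79 (SE 0.24, adjusted p = 0.0805 by edgeR) and 0.76 (SE 0.26, adjusted p = 0.132 by edgeR). The libraries were left out for their expression over all genes, which includes these genes. Over all genes the 12 libraries fall into 4 clusters, which were drawn from these same data. Cluster 1 holds shDis3 replicates 1, 3 and 4, shExosc10 replicate 1 and shLuc replicate 4, and cluster 2 holds shDis3 replicate 2 alone. With the cluster as a term, shDis3 is thus compared through cluster 1 only. The shExosc10 and shLuc libraries there are those with high Cpa3, so nothing is read from the turn in direction. With the 3 or the 4 left out, the shDis3 libraries that remain (clusters 1 and 2) share no cluster with the shLuc libraries that remain (clusters 3 and 4) or with shExosc10 replicates 2 to 4 (cluster 3), so in both fits the hairpin and the kind of library cannot be told apart.

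In shExosc10 against shLuc, which uses the same shLuc libraries, none of the 7 was called either. Cpa3 had a log2 fold change of -0.01 (SE 1.03), Ms4a2 of 0.04 (SE 0.79), Hdc of 0.17 (SE 0.34), Mcpt8 of 0.53 (SE 0.75), Cma1 of -0.34 (SE 0.55), Prss34 of -0.93 (SE 0.63) and Il1rl1 of 0.46 (SE 0.27), each with an adjusted p of 1 by edgeR. Each group held 1 library with high Cpa3 and Ms4a2, shExosc10 replicate 1 and shLuc replicate 4, and 3 libraries with low values. The background was 0.00567% of genes called, and 0 of 7 genes had groups that did not overlap, where 0.459% of genes lay wholly higher and 0.204% wholly lower in shExosc10. At an unadjusted p under 0.05, 371 genes or 2.1% passed and none of the 7 did, and DESeq2 called 8 genes and none of the 7. Il1rl1 had 0.66 (SE 0.21, unadjusted p = 0.00793 and adjusted p = 1 by edgeR) without 3 libraries and 0.62 (SE 0.21, adjusted p = 0.817 by edgeR) without 4. The 3 shExosc10 libraries kept lay above the 3 shLuc libraries kept, but the share of all genes that did so was not counted. Cpa3 had -0.54 (SE 0.44) and -0.58 (SE 0.31) in these fits, which called 0.0157% and 0.0323% of genes.

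In shDis3 against shExosc10, 0 of the 7 genes were called with all libraries, where 0.0113% of genes were. Il1rl1 had a log2 fold change of -0.60 (SE 0.27), with an unadjusted p of 0.0405 and an adjusted p of 0.809 by edgeR, in a comparison where 5.98% of genes had an unadjusted p under 0.05. It was the only one of the 7 below that level. Cpa3 had 0.50 (SE 1.03), Ms4a2 0.33 (SE 0.79), Hdc 0.18 (SE 0.34), Mcpt8 0.09 (SE 0.74), Cma1 0.24 (SE 0.55) and Prss34 0.85 (SE 0.63). The groups overlapped for all 7, where 2.13% of genes lay wholly higher and 0.561% wholly lower in shDis3, and DESeq2 called 79 genes and none of the 7. Cpa3 was called higher in shDis3 without the 3 libraries, at 2.35 (SE 0.45, adjusted p = 0.0101 by edgeR), and without the 4, at 1.52 (SE 0.34, adjusted p = 0.0144 by edgeR), in fits that called 3.23% and 2.15% of genes. The 2 shDis3 libraries left in the smaller fit had 10.5 and 7.64 TPM, against 3.46, 2.55 and 2.22 TPM in the 3 shExosc10 libraries. With all libraries and their cluster as a term the direction turned here too, to -0.91 (SE 0.47, adjusted p = 0.928 by edgeR) for Cpa3 and -1.11 (SE 0.43, unadjusted p = 0.0244 and adjusted p = 0.928 by edgeR) for Ms4a2, and in the smaller fits shDis3 and shExosc10 libraries share no cluster. The fit with the cluster term again compares shDis3 through cluster 1 only. No other gene of the 7 was called in these fits.

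**Figure D4:**
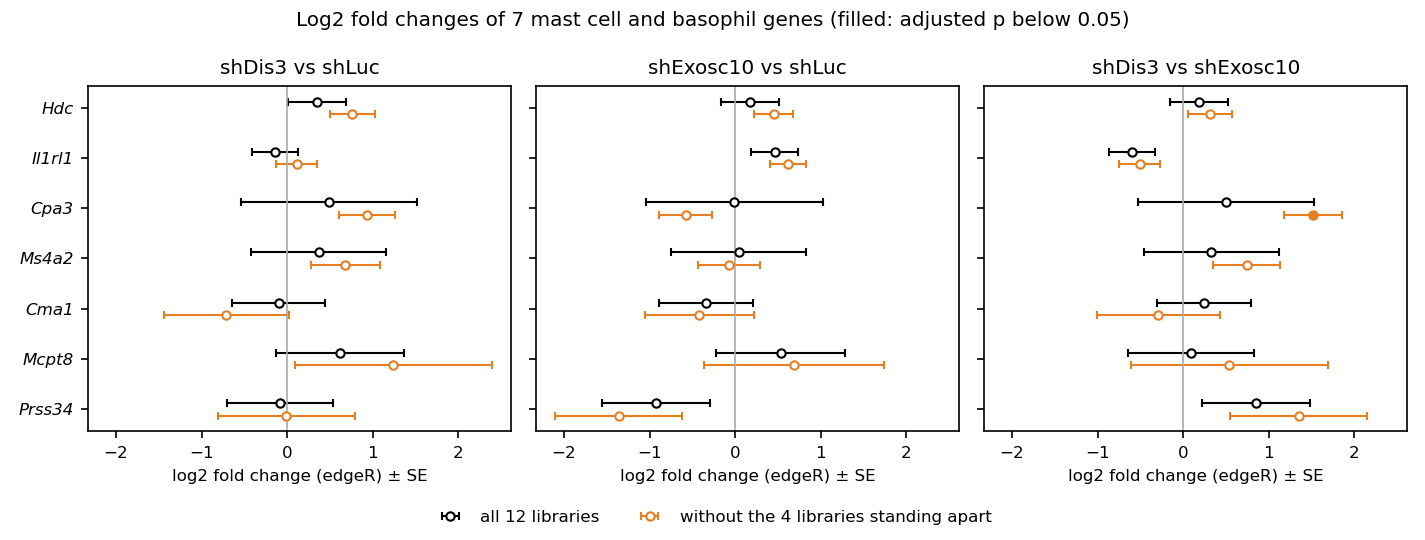
Log2 fold changes with their SE from edgeR for 7 mast cell and basophil genes in shDis3 against shLuc, shExosc10 against shLuc and shDis3 against shExosc10, with all 12 libraries (black) and without the 4 libraries that stood apart (orange); filled points have an adjusted p below 0.05. Only Cpa3 in shDis3 against shExosc10 without the 4 libraries is filled, at 1.52; with all libraries its value was 0.50 with an SE of 1.03.

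The wider mast cell and basophil programme was read from 6 lists of other genes, chosen by role. With all 12 libraries, none of their genes was called in any of the 3 comparisons. In shDis3 against shLuc without the 3 libraries named above, where 4.04% of all genes were called, 3 of 7 granule genes, 4 of 13 signalling genes, 3 of 9 genes for lipid mediators and monoamines, 1 of 17 receptors and 3 of 16 transcription factors were called higher. A further receptor and a further transcription factor were called lower, and 0 of 3 cytokines were called. Without the 4, where 3.34% of all genes were called, the counts higher were 3 of 7, 4 of 13, 3 of 9, 0 of 18 and 2 of 16, with 1 receptor and 1 transcription factor lower and 0 of 2 cytokines called. None was called in shExosc10 against shLuc in either fit.

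In shDis3 against shExosc10, which uses the same shDis3 libraries, 2 of 7 granule genes (Ctsg and Cd63), 4 of 13 signalling genes (Fcer1g, Syk, Lcp2 and Plcg2), 2 of 9 genes for lipid mediators and monoamines (Alox5 and Ptgs1) and 4 of 16 transcription factors (Cebpa, Meis1, Irf8 and Spi1) were called higher without the 3 libraries, where 3.23% of all genes were called. The receptor gene Il9r and the transcription factor gene Bhlhe40 were called lower, and no cytokine was called. Without the 4, where 2.15% of all genes were called, the counts higher were 2, 3, 3 and 2, with Il9r and Bhlhe40 again lower. Lcp2, Irf8 and Spi1 were then not called and Alox5ap was. As for Cpa3, the hairpin and the kind of library cannot be told apart in these fits.

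Among 13 other granule genes, 8 were tested. Srgn, the proteoglycan core that packs granule proteases, was highest, with 323 ± 36.8 TPM in shDis3, 290 ± 72.5 TPM in shExosc10 and 249 ± 150 TPM in shLuc (SD, n = 4 each). Ctsg, cathepsin G of neutrophil and mast cell granules, averaged 134 ± 11.5 TPM in shDis3, 79.0 ± 39.1 TPM in shExosc10 and 61.0 ± 70.4 TPM in shLuc, and Ctsd, a lysosomal protease, 83.4 ± 24.1, 61.0 ± 8.34 and 63.6 ± 19.5 TPM in these groups. Ctsg rose in shDis3 against shLuc without the 3 libraries (log2 fold change 1.84, SE 0.20, adjusted p = 0.000245 by edgeR) and without the 4 (1.93, SE 0.21), as did Cd63, a granule membrane protein (1.29 and 1.20), and Serpinb1a, an inhibitor of granule proteases (1.48 and 1.56). With all 12 libraries Ctsg had 1.25 (SE 0.44), with an unadjusted p of 0.0126 and an adjusted p of 1 by edgeR. Gzmb, granzyme B, measured 0.06, 0.36, 11.8 and 6.08 TPM in shDis3, 8.01, 0.08, 0.18 and 0 TPM in shExosc10, and 0.02, 0.13, 0 and 22.3 TPM in shLuc. The 4 libraries with over 6 TPM of Gzmb were those that stood apart, and the lowest of them was 16.9 times the highest of the other 8. The mucosal mast cell proteases Mcpt1 and Mcpt2 did not exceed 0.36 and 0.54 TPM in any library.

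Of 14 genes of the IgE receptor's gamma chain and signalling, 13 were tested. Btk, a kinase downstream of the receptor, averaged 52.0 ± 12.6 TPM in shDis3, 45.0 ± 3.86 TPM in shExosc10 and 48.9 ± 18.1 TPM in shLuc, and Lyn, the kinase that first phosphorylates the receptor, 34.5 ± 7.63, 28.3 ± 3.23 and 27.3 ± 10.7 TPM (SD, n = 4 each). Neither was called with all libraries, without the 3 or without the 4. Fcer1g had 0.69 (SE 0.46) in shDis3 against shLuc with all libraries, and rose without the 3 libraries (1.24, SE 0.19, adjusted p = 0.00186 by edgeR) and without the 4 (1.16, SE 0.24, adjusted p = 0.00498 by edgeR). The kinase Syk (1.42 and 1.15), the adaptor Lcp2 (1.54 and 1.48) and the phospholipase Plcg2 (1.83 and 1.42) also rose in both of these fits. The median log2 fold change of the 13 with all libraries was 0.21 in shDis3 against shLuc, with 9 positive, and -0.41 in shExosc10 against shLuc, with 2 positive, where the median of all genes was 0.02 in both.

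Of 10 genes for lipid mediators and monoamines, 9 were tested. The leukotriene genes were led by Alox5ap, which presents arachidonate to the lipoxygenase, at 36 ± 4.58 TPM in shDis3, 22.1 ± 12 TPM in shExosc10 and 20.7 ± 18.2 TPM in shLuc. Alox5, the 5-lipoxygenase, averaged 21 ± 8.66, 8.16 ± 5.38 and 13.2 ± 16.6 TPM, and Pla2g4a, which releases arachidonate, 18.9 ± 4.32, 19.2 ± 9.25 and 18.6 ± 3.41 TPM in the same groups (SD, n = 4 each). In shDis3 against shLuc, Alox5ap (1.05 and 1.17), Alox5 (1.45 and 1.27) and the cyclooxygenase Ptgs1 (1.75 and 1.63) rose without the 3 and without the 4 libraries, with adjusted p between 0.00133 and 0.00459 by edgeR in all 6 cases. Pla2g4a did not pass in either (-0.23 and -0.30). Ltc4s and Hpgds, the synthases of leukotriene C4 and prostaglandin D2 in mast cells, did not exceed 2.29 and 0.57 TPM in any library.

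Of 19 receptors, 17 were tested. Kit, the stem cell factor receptor of mast cells and early blood cells, averaged 67.6 ± 28.3 TPM in shDis3, 82.3 ± 21.5 TPM in shExosc10 and 86.6 ± 9.5 TPM in shLuc (SD, n = 4 each). For Kit the log2 fold change between shDis3 and shLuc was -0.63 (SE 0.21), at an unadjusted p of 0.01 and an adjusted p of 1 by edgeR. Csf2rb, the shared beta chain of the receptors for IL-3, IL-5 and GM-CSF, averaged 36.5 ± 17.9, 22.6 ± 9.98 and 29.2 ± 23.8 TPM in shDis3, shExosc10 and shLuc, and the integrin Itgb7 9.26 ± 5.87, 15.4 ± 9.36 and 9.12 ± 2.56 TPM. Il9r, the receptor for IL-9, fell in shDis3 against shLuc without the 3 libraries (-1.63, SE 0.28, adjusted p = 0.00422 by edgeR) and without the 4 (-1.61, SE 0.31, adjusted p = 0.00286 by edgeR). Il18rap rose without the 3 (0.87, SE 0.22, adjusted p = 0.0411 by edgeR) and was at 0.77 (SE 0.25, adjusted p = 0.123 by edgeR) without the 4. Mrgprb2, the receptor of connective tissue mast cells for cationic peptides, had 16 counts over all 12 libraries.

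All 16 transcription factors of the lineage were tested. Ikzf1, which acts widely in blood cells, averaged 165 ± 99.7 TPM in shDis3, 117 ± 44.4 TPM in shExosc10 and 184 ± 89.5 TPM in shLuc, Zfpm1, the partner of GATA factors, 106 ± 79.5, 63.4 ± 17.9 and 93.7 ± 64.9 TPM, and Gata1, which erythroid cells share with mast cells, 60.1 ± 18.7, 49.4 ± 1.88 and 53.8 ± 17.3 TPM (SD, n = 4 each). The ranges of the 3 groups overlapped for each of these genes, and none of them was called with all libraries, without the 3 or without the 4. In shDis3 against shLuc, Cebpa, a factor of granulocyte progenitors, rose without the 3 libraries (2.12, SE 0.26, adjusted p = 0.00046 by edgeR) and without the 4 (1.96, SE 0.27), and so did Meis1 (1.70 and 1.36), a factor of early progenitors. Irf8 rose without the 3 (1.91, SE 0.43, adjusted p = 0.0214 by edgeR) and had 1.55 (SE 0.49, adjusted p = 0.1 by edgeR) without the 4. Bhlhe40, a basic helix-loop-helix repressor, fell in both fits (-1.92 and -1.87), and had -1.86 (SE 0.58) with all libraries, with an unadjusted p of 0.00589 and an adjusted p of 1. Gata2, which both lineages need, measured 36.6, 17.7, 56.4 and 14.87 TPM in shDis3, 14.2, 18.2, 17.0 and 21.1 TPM in shExosc10, and 21.1, 18.3, 22.1 and 93.0 TPM in shLuc, and was high in shDis3 replicate 3 and shLuc replicate 4 but not in shDis3 replicate 4 or shExosc10 replicate 1. Mitf, the mast cell factor, lay between 0.77 and 2.6 TPM in all libraries.

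Of 11 cytokines and chemokines, 3 were tested. Tnf averaged 0.98 ± 0.492 TPM in shDis3, 0.427 ± 0.498 TPM in shExosc10 and 0.693 ± 1.07 TPM in shLuc, Ccl3 0.753 ± 0.542, 0.11 ± 0.127 and 1.22 ± 1.46 TPM, and Il6 0.412 ± 0.261, 0.285 ± 0.304 and 0.768 ± 0.794 TPM (SD, n = 4 each). None of these was called with all libraries, or without the 3 or the 4 where it was tested. Il4 reached 1.91 TPM in shLuc replicate 4 and at most 0.66 TPM elsewhere, and Il3 and Areg were at 0 in all 12 libraries.

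Markers of other cell types moved over the same libraries. The summed level of 9 eosinophil markers was 38.5 to 116 TPM in the 4 libraries that stood apart, against 6.98 to 29.4 TPM in the other 8. By group it was 22.5 to 52.3 TPM in shDis3, 6.98 to 47.6 TPM in shExosc10 and 8 to 116 TPM in shLuc. Of the 9 genes, 4 were higher in each library that stood apart than in each other one, as were 3.92% of all genes tested. The 4 libraries were singled out over all genes, so this is a description only. Prg2, the eosinophil major basic protein, measured 14.4, 11.74, 24.7 and 21.6 TPM in shDis3, 24.8, 3.57, 4.43 and 6.86 TPM in shExosc10, and 5.6, 9.84, 4.76 and 66.5 TPM in shLuc. It lay at 21.6 to 66.5 TPM in the 4 libraries that stood apart and at 3.57 to 14.4 TPM in the other 8. The part of eosinophil markers in the levels of Cpa3 and Ms4a2 was not tested. Sums of 15 megakaryocyte markers were 241 to 369 TPM in the 4 libraries and 38.4 to 315 TPM in the other 8, those of 14 neutrophil precursor markers 1160 to 3244 and 828 to 4035 TPM, and those of 14 stem and early progenitor markers 330 to 764 and 200 to 488 TPM. Lymphoid markers summed to 10.3 to 18.4 and 2.26 to 14.2 TPM, endothelial and stromal markers to 11.4 to 20.6 and 2.45 to 14.6 TPM, monocyte and macrophage markers to 67.2 to 133 and 48.4 to 170 TPM, and hepatocyte markers to 10.8 to 16.5 and 9.11 to 24.6 TPM. These ranges overlapped, and with all libraries no gene of these lists was called in shDis3 against shLuc. Without the 3 libraries, 4.04% of all genes were called in shDis3 against shLuc. In that fit 12 of 15 megakaryocyte, 8 of 14 neutrophil precursor, 6 of 12 stem and early progenitor, 3 of 11 monocyte and macrophage, 1 of 9 eosinophil, 1 of 5 lymphoid and 1 of 6 endothelial and stromal markers rose, beside Cpa3 and the granule and signalling genes above, and 3 of 18 erythroid and 1 of 4 hepatocyte markers fell. As for Cpa3, the hairpin and the kind of library cannot be told apart there. Some genes count on both sides, since Ctsg is also in the neutrophil list, Irf8 in the monocyte list and Meis1 in the stem cell list. Their part in those results was not tested.

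**Figure D5:**
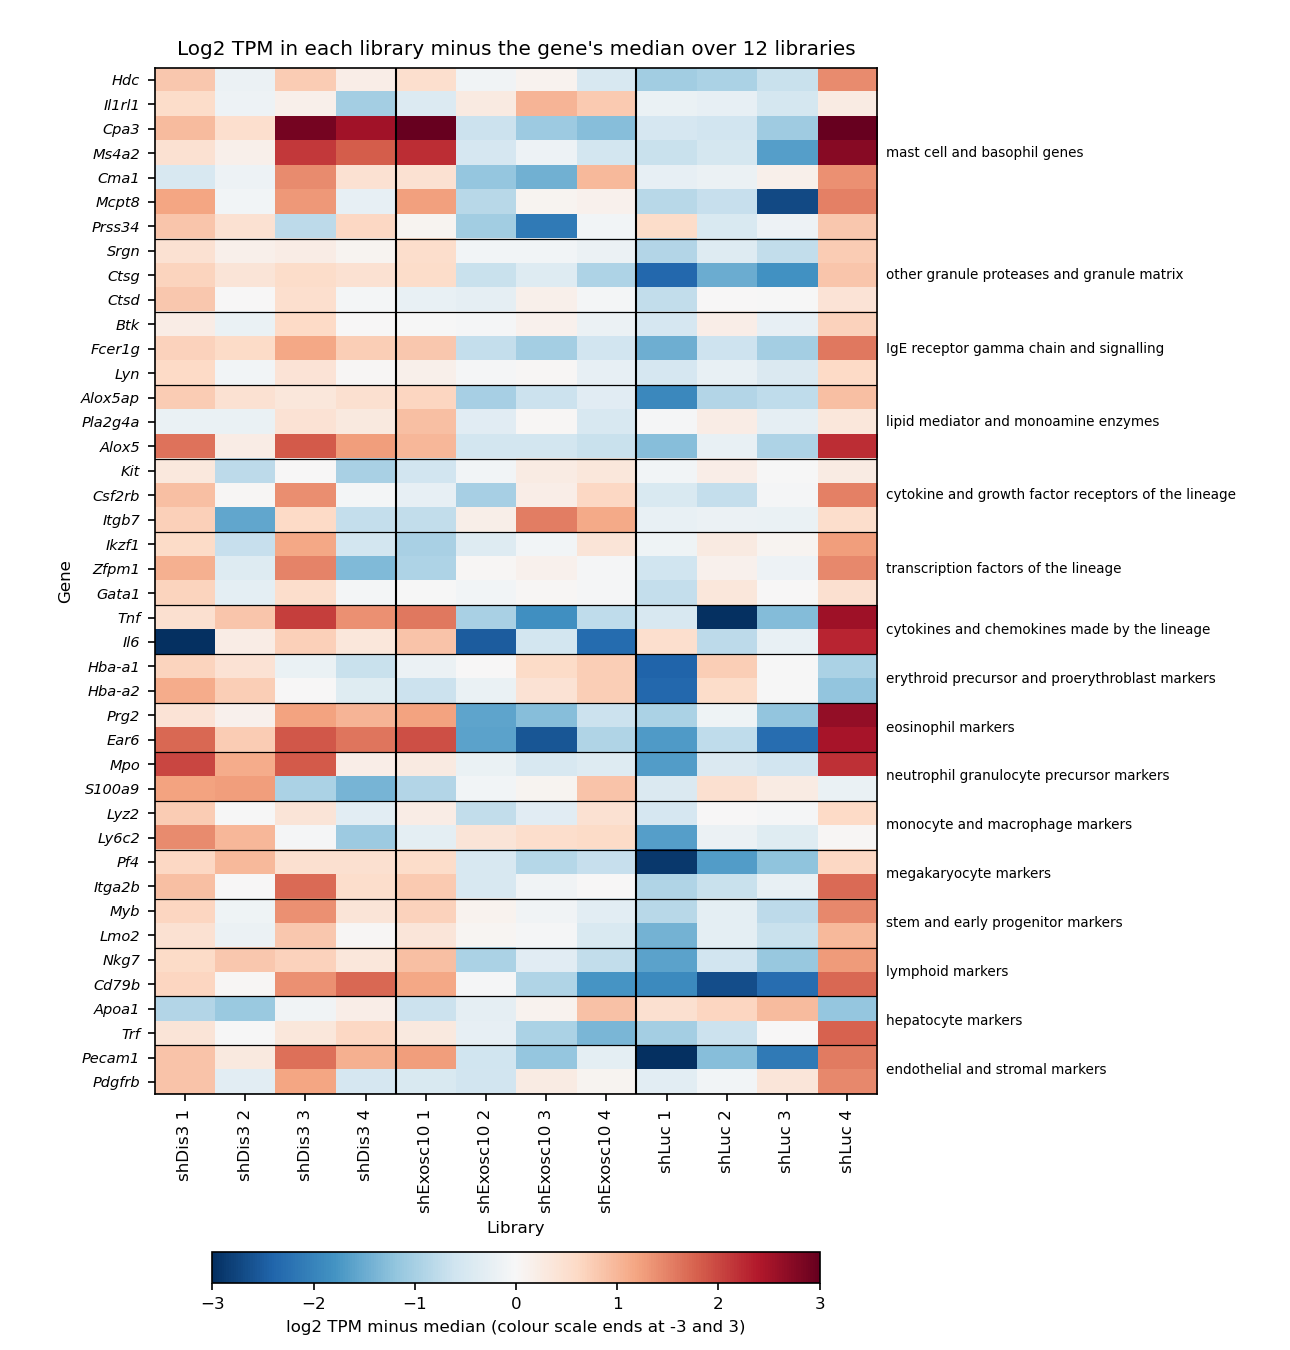
Log2 TPM minus the gene's median over 12 libraries (colour, ending at -3 and 3) for 7 mast cell and basophil genes, the genes of highest mean TPM in each wider list and in each list of another cell type, in shDis3, shExosc10 and shLuc libraries; Ccl3 has values of 0 and is not drawn. Cpa3 and Ms4a2 are reddest in shDis3 replicates 3 and 4, shExosc10 replicate 1 and shLuc replicate 4. So are the eosinophil gene Prg2, the cytokine gene Tnf, Fcer1g, Pla2g4a, the lymphoid marker Cd79b and the endothelial marker Pecam1.

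For each of the 7 genes, the 5 genes of most similar log2 CPM over the 12 libraries were named by Pearson r, as a description. They were picked from all 17650 for a high r, and the part of cell content or depth in these r was not tested. Cpa3 was most like Mef2c (r = 0.971), Ikzf2 (0.968), Scin (0.964), Ttyh2 (0.964) and Sept6 (0.963). Ms4a2 was most like Angpt1 (r = 0.972), Scin (0.962), Pdzph1 (0.958), Fut8 (0.955) and Hook1 (0.953). Scin, which encodes an actin-severing protein, was thus on both lists. These r include the 4 libraries that stood apart, where Cpa3 and Ms4a2 were highest. Over the other 8 libraries r was 0.69 to 0.93 for the 5 genes named with Cpa3. For the 5 named with Ms4a2 it was 0.73 to 0.85, and Scin was the lowest on each list. Hdc was most like Lat (r = 0.958), the adaptor of IgE and T cell receptor signalling, then Dusp3 (0.931), Tpm4 (0.929), Idua (0.92) and Tmem38b (0.911). Il1rl1 was most like Esyt2 (r = 0.922), Ptpn13 (0.908), Gm48225 (0.905), Wdr7 (0.9) and Syne1 (0.898). Of the low genes, Mcpt8 was most like Cd27 (r = 0.922), Gm45867, Sytl4, AI504432 and Gm16104, Cma1 like Faap20 (0.886), Tedc1, Evc, 1110002L01Rik and Gm9027, and Prss34 like Nagk (0.874), Zfp867, Tmem138, Rchy1 and Arntl.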

How the data were processed

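RNA from sorted fetal liver cells of 12 libraries was sequenced with a stranded kit for small amounts of total RNA, per the labels' protocols. Tools named in the submitters' processing notes are RSEM 1.3.0 and STAR 2.5.3a, with build mm10 (GRCm38). Which step each tool did, the annotation release and the strand setting are not given in the sources used, so reads of overlapping or antisense genes cannot be told apart. Per the file headers, the authors deposited an RSEM expected count for each gene, an estimated read count that need not be whole (4.55% were not, to a tolerance of 0.001). The deposited tables also hold TPM, scaled by the authors to transcript length and library size. Symbols and coordinates came from GENCODE M21 on GRCm38 (54487 of 55385 identifiers matched with their version, 55144 without).

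Expected counts were rounded and tested with edgeR 4.0.16 in R 4.3.3 (quasi-likelihood F-test, TMM, default filter by group, 12 libraries, group as the only term), giving 17650 genes and a biological coefficient of variation of 60%. Adjusted p-values are Benjamini-Hochberg over all genes tested. The script was tested on simulated counts with 200 changed genes. No pair of libraries was alike within counting noise (lowest chi-square per degree of freedom 13.1). Limits from counts of 0 use 3 counts and cover counting error alone, as reads were counted without molecular identifiers.

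All 10 genes are named, with the 3 genes of highest mean TPM in each wider list, genes of these lists called in a comparison, the 2 highest genes of each list of another cell type (drawn, not all printed) and 5 genes per tested gene by Pearson r of log2 CPM (prior count 2). Other genes of these lists, among them those called only with libraries left out, were named after their values were seen. The genes and lists were chosen with earlier results of these data known. Alternatives were RLE size factors, DESeq2 1.42.0, no filter, limma 3.58.1 on log2(TPM + 1) and log2(TPM + 0.1), the replicate number as a block, the cluster of libraries as a term (average linkage on 1 minus the Pearson r of log2 CPM, 4 clusters), and libraries left out.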

Additional observations from a re-analysis of the deposited data

Results flagged for a closer look

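For each of the genes with a count above 0 and each group of 4 libraries, the gap between an end value and its neighbour was set against the range of the group. In 2 of the 27 sets a single library was above 0, so the gap was the whole range whatever its value. In 6 of the other 25 sets the gap exceeded Dixon's critical share of the range. For independent groups of normally distributed values, chance gives this in about 1 in 20. The sets here are TPM of genes measured in the same libraries, and all 6 gaps lay at shLuc replicate 4 or shExosc10 replicate 1. The count of 6 is therefore not set against that share. In shLuc, replicate 4 lay far above the other 3 libraries for Cpa3 (70.15 TPM), Ms4a2 (18.49 TPM), Hdc (122.16 TPM) and Cma1 (4.30 TPM). In shExosc10, replicate 1 lay far above the others for Cpa3 (47.87 TPM) and Ms4a2 (12.87 TPM). These are both among the 4 libraries that resembled a library of another group over all genes, and shExosc10 replicate 1 had no such gap for Hdc or Cma1. The 2 shDis3 libraries of that kind, replicates 3 and 4, form a pair within their group, so that neither end of the group stands alone. The sets with a single library above 0 were both of Mcpt4, in shDis3 (replicate 2, 0.22 TPM, from 4 counts) and in shExosc10 (replicate 2, 0.14 TPM, from 4 counts), and nothing is read from their gap. No cause was tested for any of these.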

How the results depend on the processing

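The count of genes called among the 7 was 0 in each comparison under every alternative, each library left out in turn included, except where several libraries were left out together. Without shDis3 replicate 4, shExosc10 replicate 1 and shLuc replicate 4 it was 1 in shDis3 against shLuc and 1 in shDis3 against shExosc10, and without shDis3 replicate 3 as well it was 1 in shDis3 against shExosc10 (Cpa3 each time). These fits hold fewer libraries, and the cause was not tested. Of 189 other log2 fold changes 163 kept their direction uncalled, 23 turned uncalled and 3 were called (Cpa3). With no filter, Cpa3 in shExosc10 against shLuc turned to 0.001. In shDis3 against shLuc, limma on log2(TPM + 1) gave Prss34 0.06, Cma1 0.033 and Il1rl1 0.068, and on log2(TPM + 0.1) 0.089, 0.038 and 0.067. When library clusters entered as a term, this comparison gave Cpa3 -0.98, Ms4a2 -0.73, Hdc -0.22, Mcpt8 -0.058 and Il1rl1 0.22, and shDis3 against shExosc10 gave Cpa3 -0.91, Ms4a2 -1.11, Hdc -0.53, Mcpt8 -0.93 and Cma1 -0.12. In both, shDis3 was compared through the libraries of cluster 1 only. Without the 3 libraries Il1rl1 in shDis3 against shLuc was 0.014 and Ms4a2 in shExosc10 against shLuc -0.017, and without the 4 they were 0.11 and -0.065, with Cma1 in shDis3 against shExosc10 at -0.29. The cause of these turns was not tested.

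With 1 library left out, 224 of 252 values kept their direction, 28 turned and none was called. In shDis3 against shLuc the values ran from -0.33 to 0.33 for Prss34, -0.045 to 1.62 for Ms4a2, -0.34 to 0.14 for Cma1 and -0.35 to 0.024 for Il1rl1, with Cpa3 at 0.02 to 2.28. In shExosc10 against shLuc they ran from -2.34 (without shExosc10 replicate 1) to 1.80 (without shLuc replicate 4) for Cpa3, -1.27 to 1.3 for Ms4a2 and -0.042 to 0.69 for Hdc. In shDis3 against shExosc10 they ran from -0.005 to 2.84 for Cpa3, -0.16 to 0.58 for Mcpt8, -0.12 to 1.66 for Ms4a2 and -0.054 to 0.68 for Cma1. The numbers of the replicates were not taken to pair the libraries: correlations of same-numbered deviations were 0.373 to 0.773 for replicate 2 and 0.0961 to 0.233 for replicate 1, but fell as low as -0.452 for replicate 3 and -0.470 for replicate 4. With the replicate block 0 of the 7 genes were called, Cpa3 in shExosc10 against shLuc was 0.12, and 0, 1 and 1 genes in all were called in the 3 comparisons, against 0, 1 and 2 without it. Depth limits Fcer1a, Mcpt4, Tpsb2 and, at 3 to 43 counts a library, Mcpt8.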
